A study of Rattus norvegicus with 4 samples.

Results

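The subject here is clusters of neighbouring Olig2 peaks in cultured rat oligodendrocytes, the glia that make myelin in the central nervous system. A peak is a stretch of genome where chromatin immunoprecipitation sequencing (ChIP-seq) reads pile up. A vehicle Olig2 peak was taken as clustered when another peak of the same list lay at most 12.5 kb away, edge to edge on the same chromosome, and peaks at that distance were joined. By this rule 626 of the 4965 vehicle Olig2 peaks (12.6%) were clustered, and they formed 292 clusters. The other 4339 peaks were single. The positions of the vehicle Olig2 peaks chose the clusters, so cluster number, size, spacing and peak length are given as a description.

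The series held 4 ChIP-seq libraries, 1 for each combination of antibody (Olig2 or H3K27Ac) and condition (vehicle or lysolecithin). Per the labels' protocols, rat brain mixed glia spent 5 to 7 days in 15% FBS and 2 days in B104 medium. Their precursors were then isolated, grown with the mitogens bFGF (20 ng/ml) and PDGF-AA (10 ng/ml) and matured with CNTF (10 ng/ml), a ciliary neurotrophic factor, plus T3 (15 nM), a thyroid hormone. All 4 libraries came from such cells, and the labels name no strain, genetic change or replicate cultures. The treated cells received lysolecithin (lysophosphatidylcholine, LPC, a membrane-disrupting lipid used to strip myelin) for 6 h. The labels give its concentration as 12.5 mM, a unit that could not be checked here. The lists held 4965 (vehicle) and 3229 (LPC) Olig2 peaks and 38902 (vehicle) and 38721 (LPC) H3K27Ac peaks on 20 autosomes and X. They held no scores or read counts, so depth is unknown, and the identity of the cells could not be checked against marker expression. With 1 library per antibody and condition, no p-value was computed between conditions.

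Olig2 is a basic helix-loop-helix transcription factor that specifies the oligodendrocyte lineage and helps drive its differentiation. H3K27Ac, an acetylated lysine on the tail of histone H3, marks promoters and enhancers in use. Genes that define a cell type often lie beside several enhancers in a row, and lineage factors often bind more than 1 element of such a row. Sequences and gene names of the clusters are not given, because a genome and annotation of rn4, the rat build of these lists, were not used here. Coordinates are 1-based on rn4.

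Most clusters were pairs. Of the 292, 260 held 2 peaks, 25 held 3, 5 held 4, 1 held 5 and 1 held 6. Cluster spans ran from 1760 to 37080 bp, with a median of 8450 bp (quartiles 4982 and 11471 bp). Only 3 clusters reached over 25 kb. The 334 gaps between neighbouring peaks of a cluster had a median of 5167 bp, and 45 of them (13.5%) were at most 1 kb long. With Olig2 peaks at most 1 kb apart merged first, 257 clusters were found. The median length was 1144 bp for clustered and 1045 bp for single Olig2 peaks. The gaps just inside the limit were 12386, 12396 and 12422 bp, and those just outside were 12515, 12547 and 12589 bp. Clusters were found on every chromosome, holding from 4.26% of the vehicle Olig2 peaks of X, which had 1 cluster, to 16.8% of those of chromosome 14.

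Clustered Olig2 peaks lay on acetylated chromatin more often than single ones, in both conditions. A vehicle H3K27Ac peak overlapped 481 of the 626 clustered peaks, or 76.8% (95% interval 73.3 to 80.1), and 2474 of the 4339 single peaks, or 57.0% (55.5 to 58.5). Over all vehicle Olig2 peaks the share was 59.5%. An LPC H3K27Ac peak overlapped 471 clustered peaks, or 75.2% (71.7 to 78.6), and 57.8% (56.3 to 59.3) of single peaks, against 60.0% over all. The difference was 19.8 percentage points in vehicle (15.7 to 24.0) and 17.4 points in LPC (13.3 to 21.6), from intervals based on the variance between clusters. These intervals exclude 0, but they cover counting error within 1 library per list and not variation between cultures.

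Most clustered peaks were acetylated in both conditions. H3K27Ac peaks of both lists overlapped 456 clustered Olig2 peaks (72.8%, against 54.9% over all vehicle Olig2 peaks), and no H3K27Ac peak of either list overlapped 130 (20.8%, against 35.4%). H3K27Ac of vehicle alone lay on 25 (3.99%, against 4.57%) and H3K27Ac of LPC alone on 15 (2.40%, against 5.06%). For LPC alone the single peaks had 5.44%, a difference of -3.04 points (-4.41 to -1.68), but only peaks off vehicle H3K27Ac can enter this class, and these were fewer among clustered peaks. Of the 145 clustered and 1865 single peaks off vehicle H3K27Ac, 10.3% and 12.7% lay on LPC H3K27Ac, a difference of -2.31 points (-7.49 to 2.87). An H3K27Ac peak that had no partner in the vehicle list was touched by 3.51% of clustered and 7.26% of single Olig2 peaks (6.79% over all), a difference of -3.75 points (-5.41 to -2.08). Of the peaks off vehicle H3K27Ac it was 8.97% and 12.4%, a difference of -3.42 points (-8.28 to 1.44). For H3K27Ac peaks without a partner in the LPC list, the shares were 5.91% and 6.43% (6.36% over all) and the difference was -0.52 points (-2.45 to 1.41). That interval, and both among peaks off vehicle H3K27Ac, include 0.

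The acetylated share declined over a range of spacings beyond 2.5 kb, not at the 12.5 kb limit alone. Of single peaks with another Olig2 peak at most 25 kb away, 68.0% lay on vehicle H3K27Ac, against 55.7% of single peaks farther from a neighbour. Compared with those nearer single peaks alone, the excess of clustered peaks was 8.81 points in vehicle (2.99 to 14.6) and 8.07 points in LPC (1.92 to 14.2). The highest share, 85.7% (78.6 to 91.2), belonged to the 133 peaks whose neighbour was 2.5 to 5 kb away. Peaks with a nearer neighbour had lower shares, 74.2% of 89 at up to 1 kb and 71.7% of 92 at 1 to 2.5 kb. The lowest, 46.9% (38.6 to 55.4), belonged to the 145 peaks over 1000 kb from any other.

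**Figure D1:**
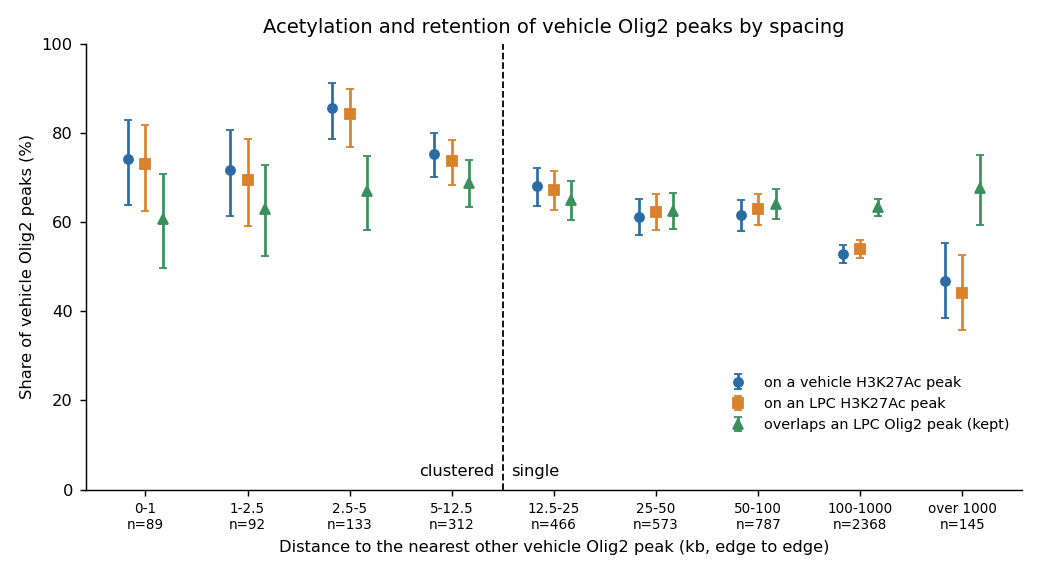
Share of vehicle Olig2 peaks (y axis, percent, with exact 95% intervals) that overlapped a vehicle H3K27Ac peak (circles), an LPC H3K27Ac peak (squares) or an LPC Olig2 peak (triangles), by distance to the nearest other vehicle Olig2 peak (x axis, kb). The share on vehicle H3K27Ac is 74.2% and 71.7% in the nearest classes, 85.7% at 2.5 to 5 kb, and declines from there to 46.9% over 1000 kb, while the share kept stays between 60.7% and 68.9%.

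Longer Olig2 peaks were more often acetylated, so clustered and single peaks were set side by side within 5 equal classes of the vehicle list by length. In the class of shortest peaks (393 to 846 bp), 51.9% of 79 clustered and 28.1% of 911 single peaks lay on vehicle H3K27Ac. In the longest (1403 to 5217 bp), the shares were 93.4% of 181 and 87.2% of 812. The clustered share was the higher one in all 5 classes, in both H3K27Ac lists. Averaged over the classes, the excess was 15.0 points in vehicle (10.8 to 19.2) and 12.1 points in LPC (7.92 to 16.3).

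Larger clusters were more often acetylated than pairs. In the 32 clusters of 3 or more peaks, 95 of 106 peaks (89.6%) lay on vehicle H3K27Ac and 96 (90.6%) on LPC H3K27Ac. In the pairs these shares were 74.2% and 72.1% of 520 peaks. The differences were 15.4 points (7.83 to 23.0) and 18.5 points (11.0 to 25.9). When only vehicle peaks of at least the median length were joined, they were 6.83 (0.75 to 12.9) and 9.68 points (3.36 to 16.01). With peaks joined at 5 kb in place of 12.5 kb, both intervals included 0 (9.20 points, -5.30 to 23.7, and 11.0 points, -3.55 to 25.5).

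Neighbours in a cluster tended to share their acetylation. A clustered peak lay on vehicle H3K27Ac in 85.2% of cases when its nearest neighbour did (408 of 479) and in 49.7% when its neighbour did not (73 of 147). The difference was 35.5 points (23.7 to 47.4). For single peaks and their nearest neighbour, however far, it was 15.95 points (12.2 to 19.7), and the gap between these differences was 19.6 points (7.10 to 32.0). In the LPC list the difference was 31.6 points for clustered (19.8 to 43.3) and 15.5 points for single peaks (11.7 to 19.3). Leaving out neighbours at most 1 kb apart gave 31.3 points in vehicle (18.2 to 44.3). Limiting the list to the longer peaks, from the median length up, gave 22.6 points with an interval that includes 0 (-4.49 to 49.7). The sharing did not stop at the 12.5 kb limit. For downstream peaks by their upstream neighbour, the vehicle difference was 27.2 points at gaps of 5 to 12.5 kb (9.09 to 45.4). At gaps of 12.5 to 25 kb, too far to be joined, it was 17.4 points (4.81 to 29.96). In the LPC list these differences were 25.5 (7.65 to 43.4) and 24.98 points (12.3 to 37.6). Gaps of at most 1 kb had the largest differences, 57.6 points in vehicle and 52.2 in LPC.

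Counted by cluster, 184 of the 292 (63.0%, 57.2 to 68.6) had every peak on vehicle H3K27Ac, 73 (25%) some and 35 (12.0%) none. Were each peak of a pair acetylated independently at the 74.2% share of paired peaks, 38.3% of pairs would be mixed and 6.64% bare. The counts were 64 mixed (24.6%, 19.5 to 30.3) and 35 bare (13.5%, 9.56 to 18.2) of 260 pairs. No cluster of 3 or more was bare of vehicle H3K27Ac (0 of 32, which allows a share of up to 10.9%). On LPC H3K27Ac, 175 clusters had every peak (59.9%), 81 some and 36 none.

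The chromatin between clustered peaks was acetylated too. H3K27Ac peaks covered 21.5% (18.6 to 24.4) of the 1801910 bp of gaps in vehicle and 24.5% (21.3 to 27.7) in LPC. The 12.5 kb on either side of single peaks was covered to 4.49% and 5.27%, and the 12.5 kb beyond the ends of clusters to 8.88% and 10.4%. These distances are unlike, because gaps have an Olig2 peak at each end and lie nearer to one than much of the flanks. Gaps of at most 1 kb were covered to 50.1% in vehicle and 51.9% in LPC, and gaps of over 5 kb to 18.5% and 21.1%. Around single peaks, vehicle cover was 14.0% at 1.25 kb downstream of the midpoint and 2.67% at 8.25 kb. Few gaps were filled: 28 of 334 lay wholly under vehicle H3K27Ac peaks and 61 held none. The same 28 pairs of Olig2 peaks, 8.38% of neighbours, sat under 1 continuous vehicle H3K27Ac peak, and 31 sat under 1 LPC peak. Both peaks of a pair of neighbours were on vehicle H3K27Ac in 221 of 334 cases (66.2%), so for most of them the acetylation was divided into separate peaks.

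In windows of equal size, reaching 12.5 kb either side of the Olig2 midpoint, clustered peaks had a mean of 4897 bp under vehicle H3K27Ac and single peaks 1676 bp, a difference of 3221 bp (2673 to 3769) and a ratio of 2.92. In LPC the means were 5385 and 1902 bp, a difference of 3483 bp (2914 to 4052). Through the rule, the window reached another Olig2 peak for 598 of the 626 clustered and 0 of the single peaks. Within 1 kb of the midpoint the vehicle means were 1195 and 773 bp, a difference of 422 bp (340 to 504). At 5.25 kb downstream of the midpoint, mean vehicle cover was 15.0% around clustered and 3.19% around single peaks.

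**Figure D2:**
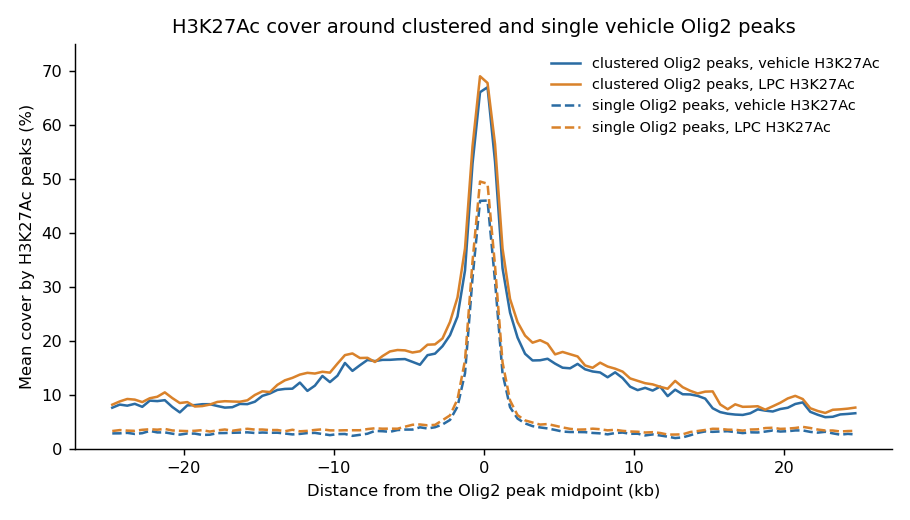
Mean cover by H3K27Ac peaks (y axis, percent of each 500 bp step) by distance from the vehicle Olig2 peak midpoint (x axis, kb), for clustered (solid) and single (dashed) Olig2 peaks and for the vehicle (blue) and LPC (orange) H3K27Ac lists. Near the midpoint vehicle cover was 67.0% for clustered and 46.0% for single peaks, and around clustered peaks a shoulder extends over about the joining distance on each side.

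When H3K27Ac peaks were themselves joined at 12.5 kb into domains, 404 clustered Olig2 peaks (64.5%) lay in a vehicle domain of 3 or more H3K27Ac peaks, against 25.5% of single ones, a difference of 39.0 points (33.6 to 44.5). The distance was the one that chose the clusters, so neighbouring acetylated Olig2 peaks mostly fall in 1 domain by construction and these counts rest in part on the spacing. Domains of 10 or more peaks held 118 clustered peaks (18.8%) and 126 single ones (2.90%). Every Olig2 peak lay in the same vehicle domain in 194 of the 292 clusters, beside the 184 with every peak on vehicle H3K27Ac.

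After LPC, the share of clustered peaks found again was close to that of single ones. A peak is called kept here when it overlapped an LPC Olig2 peak by at least 1 bp. Of the 626 clustered peaks 416 were kept, or 66.5% (62.6 to 70.1), and of the single peaks 2764, or 63.7% (62.3 to 65.1). Over all vehicle Olig2 peaks it was 64.0%. The difference was 2.75 points, with an interval from -1.33 to 6.83 that includes 0. It was -0.038 points with a joining distance of 5 kb and -0.52 among the longer vehicle peaks. With an LPC peak within 1 kb counted as kept, which lets a close neighbour's LPC peak count, it was 5.31 points (1.19 to 9.43). In bulk chromatin, fewer cells with the site bound, less binding per cell and a lower yield of the library cannot be told apart.

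Kept shares on and off acetylated chromatin were close, in clusters and outside them. Among clustered peaks, 66.1% of those on vehicle H3K27Ac and 67.6% of those off it were kept, a difference of -1.47 points (-10.5 to 7.59). Among single peaks the shares were 64.6% and 62.5%, a difference of 2.07 points (-0.82 to 4.97). Averaged over the 5 length classes, clustered peaks were kept 1.32 points more often (-2.93 to 5.57). Kept peaks were of similar relative length in LPC: the median ratio of LPC to vehicle length was 0.94 for 409 clustered and 0.93 for 2762 single peaks with 1 partner each way, and the mean log2 ratio differed by 0.01 (-0.02 to 0.04).

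By cluster, all peaks were kept in 128 (43.8%, 38.1 to 49.7), some in 126 (43.2%, 37.4 to 49.0) and none in 38 (13.0%, 9.38 to 17.4). Independent fates at the 66.5% share of clustered peaks would give 42.2%, 47.4% and 10.4%. All 38 clusters without a kept peak were pairs. Of the 260 pairs, 119 kept both peaks, 103 kept 1 and 38 kept none. Of the 32 larger clusters, 9 kept all (28.1%), 23 kept some (71.9%) and 0 kept none, which allows a share of up to 10.9%. Independent fates at the 70.8% share of their own peaks would give 32.5%, 65.4% and 2.08%.

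**Figure D3:**
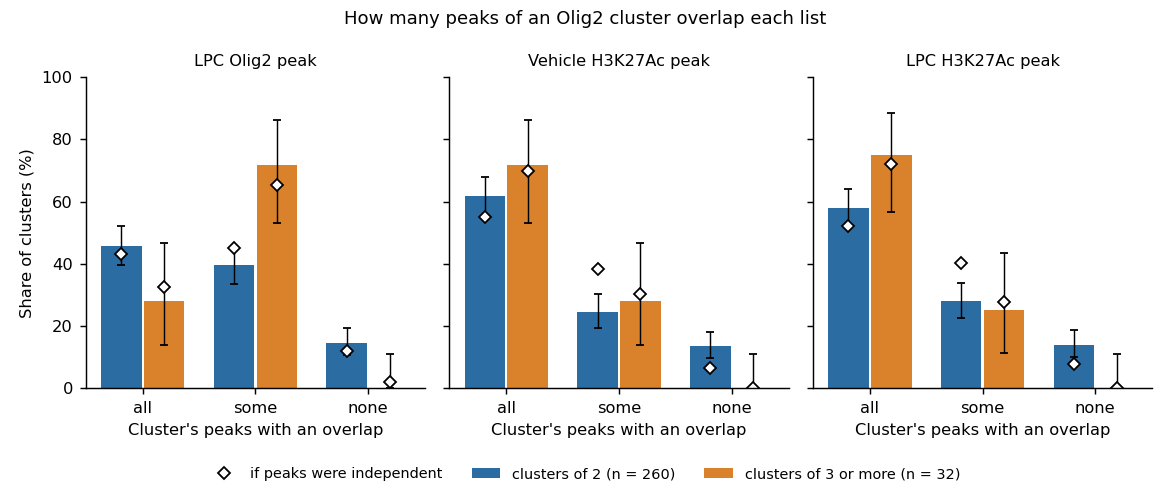
Share of Olig2 clusters (y axis, percent, with exact 95% intervals) in which all, some or none of the peaks overlapped an LPC Olig2 peak (left), a vehicle H3K27Ac peak (middle) or an LPC H3K27Ac peak (right), for 260 clusters of 2 (blue) and 32 of 3 or more (orange). Diamonds mark the share that independent peaks with the same mean would give; for pairs the mixed acetylated class is below it (24.6% against 38.3%), while the mixed kept class is nearer to it (39.6% against 45.1%).

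For retention, the difference by the fate of the nearest neighbour had an interval that includes 0 over all clustered peaks. A clustered peak was kept in 69.2% of cases when its nearest neighbour was kept (288 of 416) and in 61.0% when it was not (128 of 210). The difference was 8.28 points (-2.96 to 19.5), and 16.1 points (4.74 to 27.4) with an LPC peak within 1 kb counted as kept. With the nearest neighbour at most 1 kb away, the shares were 69.1% (38 of 55) and 47.1% (16 of 34). The interval of their difference includes 0 (-7.26 to 51.3). Among adjacent peaks with gaps of at most 1 kb, the downstream peak was kept in 19 of 22 cases (86.4%) when the upstream one was. When the upstream one was not, it was kept in 14 of 23 (60.9%), a difference of 25.5 points (0.81 to 50.2). At gaps of 1 to 2.5, 2.5 to 5 and 5 to 12.5 kb the differences were -9.375, 4.995 and 10.5 points. Their intervals all include 0. Single peaks, by their nearest neighbour at any distance, differed by 3.49 points (-0.34 to 7.31). The 8.28 points of all clustered peaks exceeded this by 4.79 points (-7.08 to 16.7). In 3 of the 334 pairs of neighbours, 1 LPC peak overlapped both vehicle peaks and so counted for each. These pairs had gaps of 31, 61 and 119 bp, so they are among the 19 cases above and were kept together by construction.

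By cluster size and by place in the cluster, all differences in the kept share had intervals that include 0. Peaks of clusters of 3 or more were kept in 70.8% (61.1 to 79.2) and paired peaks in 65.6% (61.3 to 69.7), a difference of 5.18 points (-3.47 to 13.8). In the larger clusters 33 of 42 inner peaks (78.6%) and 42 of 64 outer peaks (65.6%) were kept, a difference of 12.9 points (-6.57 to 32.5). Peaks with a neighbour at most 1 kb away were kept in 60.7%, against 67.4% of the other clustered peaks, a difference of -6.74 points (-18.5 to 5.07).

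The 126 partly kept clusters held 150 kept and 134 missing peaks. These were compared as 2 pooled groups, not within each cluster. LPC H3K27Ac overlapped 84.7% of the kept and 74.6% of the missing peaks, a difference of 10.0 points (1.69 to 18.4). In vehicle the shares were 82.7% and 79.1%, a difference of 3.56 points (-4.32 to 11.4). Within 1 kb of the midpoint, kept peaks had 1410 bp under LPC H3K27Ac and missing ones 1187 bp, a difference of 224 bp (82.7 to 364). The vehicle values were 1355 and 1191 bp, a difference of 164 bp (26.7 to 300). Kept peaks were also longer in the vehicle list, with means of 1342 and 1229 bp, and the part of length in these differences was not tested. The 10.0 and 224 bp differences had intervals that include 0 with a joining distance of 5 kb (1.52 points and 158 bp) or 25 kb (4.16 points and 116 bp) and in the longer vehicle peaks (4.73 points and 107 bp). Among the 103 pairs with 1 kept peak, the longer peak was the kept one in 53 (51.5%, 41.4 to 61.4) and the upstream one in 43 (41.7%, 32.1 to 51.9). Only the kept peak lay on LPC H3K27Ac in 19 of these pairs and only the missing one in 10. On vehicle H3K27Ac these counts were 12 and 11.

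Acetylated cover of clusters was larger in the LPC list, as it was in that list as a whole. Vehicle H3K27Ac peaks covered 36.8% of the 2.59 Mb of cluster spans and LPC peaks 39.4%, a ratio of 1.07. Cover was higher in LPC in 177 clusters, lower in 81 and equal in 34, of which 30 were bare in both lists. Over windows of 12.5 kb either side, the ratio of LPC to vehicle cover was 1.10 around clustered and 1.14 around single peaks, against 1.21 for the whole lists. The difference between clustered and single peaks was -0.036 (-0.063 to -0.0081), and its interval included 0 with H3K27Ac peaks joined within 1 kb or a joining distance of 25 kb. Peaks fully covered by vehicle H3K27Ac, which have no more bases to gain, were 169 of 626 clustered and 599 of 4339 single ones.

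Ratios of cover were close across clusters that differed in the fate of their Olig2 peaks. The ratio of LPC to vehicle cover over the span was 1.09 in clusters with all peaks kept, 1.05 in those with some and 1.10 in those with none. Of the spans, vehicle H3K27Ac covered 34.2%, 39.5% and 35.5%. In LPC the covered shares were 37.1%, 41.6% and 38.9%. These shares pool the bases of each class. The median share per cluster was 33.4%, 37.0% and 40.9% in vehicle and 35.9%, 40.2% and 45.1% in LPC. The classes also differ in cluster size, as clusters without a kept peak were all pairs. Vehicle H3K27Ac covered 33.5% of the spans of pairs and 49.4% of those of larger clusters. Within 1 kb of the midpoint, the ratio was 1.06 around kept and 1.01 around missing clustered peaks, a difference of 0.042 (-0.0066 to 0.090). Over the Olig2 peaks themselves the ratio was 1.04 for kept and 0.98 for missing clustered ones. Summed cover of the missing ones went from 179627 to 176481 bp, though 76 of them had more cover in LPC and 48 had less. The missing 5217 bp peak on chromosome 14 alone went from 4878 to 1232 bp. Among single peaks the ratio was 1.07 for kept and for missing ones. In the 12.5 kb windows, which neighbours largely share, it was 1.10 for kept and for missing clustered peaks.

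**Figure D4:**
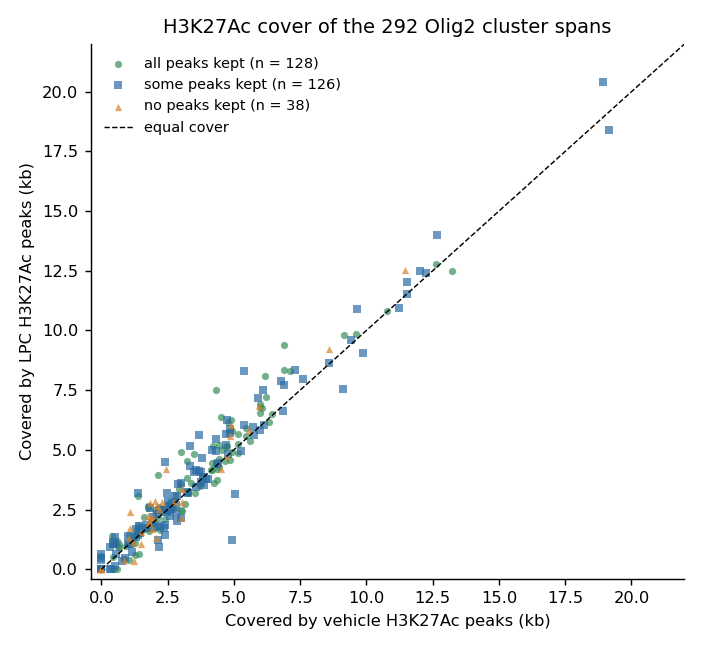
Bases of each cluster span covered by LPC H3K27Ac peaks (y axis, kb) against vehicle H3K27Ac peaks (x axis, kb), 1 point per cluster, for clusters with all (circles), some (squares) or no (triangles) Olig2 peaks kept; the dashed line marks equal cover. Points of the 3 classes lie along the same line, with 177 clusters above it and 81 below, and 1 cluster with 4918 bp in vehicle and 1232 bp in LPC stands far under it.

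The LPC Olig2 list held fewer clusters of its own. By the same rule it had 147, with 310 of its 3229 peaks (9.60%), and the largest had 5 peaks. Of these, 141 shared a peak with a vehicle cluster, and 6 arose from single vehicle peaks. Of the 292 vehicle clusters, 141 still held at least 2 LPC peaks in 1 LPC cluster, 5 held such peaks more than 12.5 kb apart, 108 held 1 LPC peak and 38 held none. A list with fewer peaks also has fewer close neighbours. The 3229 longest vehicle peaks, cut to the number in the LPC list, formed 167 clusters with 355 peaks (11.0%). Clustered peaks were longer than single ones, so this cut favours them and is no neutral reference for a list of that size. The 3180 kept vehicle peaks alone formed 144 clusters with 303 peaks (9.53%). Whether the LPC list is more or less clustered than its size implies was not tested.

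The cluster with the most peaks lay on chromosome 11 (58691898 to 58716361), with 6 peaks over 24464 bp. It kept 5 by the overlap rule, but the second peak, 31 bp from the first, met the LPC peak of the first by only 5 bp. With 50% of each peak required to overlap, 4 were kept. The sixth peak, 723 bp long, was missing in LPC and was the only one of the 6 without H3K27Ac in either list. Vehicle H3K27Ac peaks covered 19135 bp of the span and LPC peaks 18381 bp, a change of -754 bp that became -2463 bp with H3K27Ac peaks within 1 kb joined.

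The cluster of 5 on chromosome 7 (137733660 to 137770739) was also the longest, at 37080 bp. Its 5 peaks were wholly covered by H3K27Ac in both lists. Both outer peaks and the middle one were kept. The peaks between them (896 and 1895 bp) were missing in LPC, with their acetylated cover in place. H3K27Ac peaks occupied 18942 bp of the span in vehicle and 20421 bp in LPC.

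The clusters of 4 peaks with the longest spans differed among themselves. The cluster on chromosome 11 (31213193 to 31241175, 27983 bp) kept all 4 peaks, and had 6887 bp under vehicle and 8331 bp under LPC H3K27Ac. Its second peak, 1489 bp in vehicle, met an LPC peak of 659 bp, and with 50% of each peak required to overlap only 3 were kept. The cluster on chromosome 2 (79685238 to 79698938) kept 3 of 4 and was densely acetylated, with 82.1% of its span covered in vehicle and 80.0% in LPC. The cluster on chromosome 7 (11089727 to 11102975) kept its 2 middle peaks and neither outer one, with 21.9% and 26.8% covered. When an LPC peak within 1 kb was enough, these last 2 clusters kept 4 and 3. With H3K27Ac peaks within 1 kb joined, their change of cover went from -287 to -522 bp and from 648 to 184 bp.

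**Figure D5:**
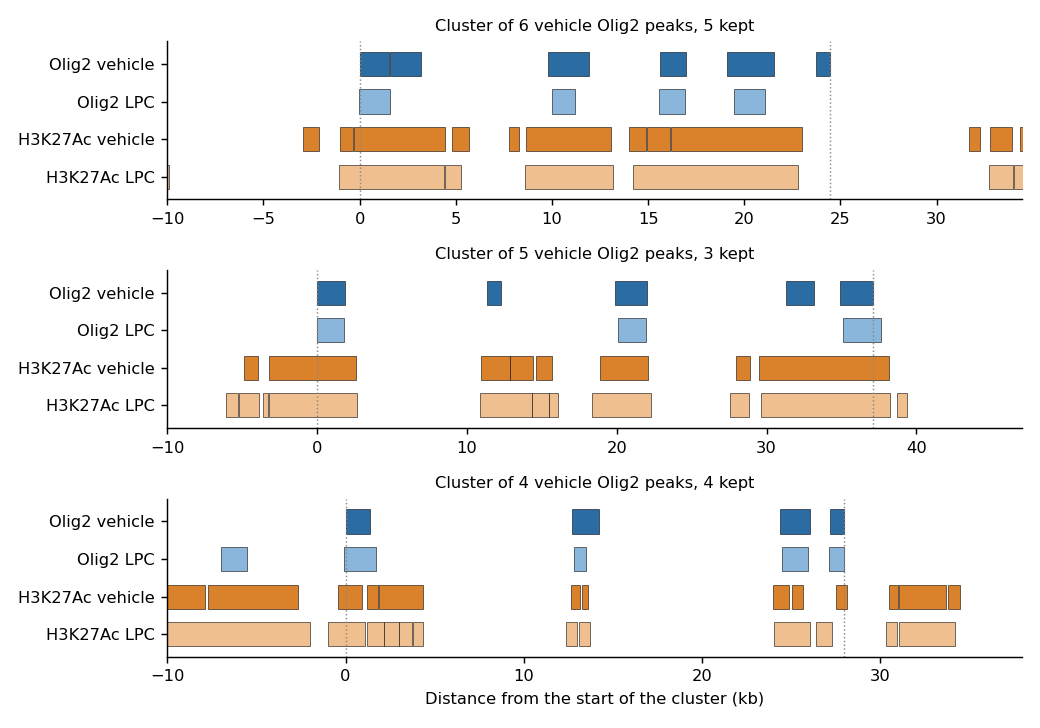
Vehicle and LPC peaks of Olig2 (blue) and H3K27Ac (orange) in the 3 clusters with the most peaks, on chromosome 11 (top), chromosome 7 (middle) and chromosome 11 (bottom), by distance from the cluster start (x axis, kb); dotted lines mark the cluster ends. In the 5-peak cluster, the peaks of 896 and 1895 bp have no LPC Olig2 peak but lie on H3K27Ac peaks in both lists.

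Wholly kept clusters of 3 were not all acetylated. Among those with the longest spans, H3K27Ac overlapped all 3 peaks of the one on chromosome 3 (152900118 to 152918983) in both lists. It overlapped 2 of 3 on chromosome 17 (37071054 to 37095866) and on chromosome 5 (145464839 to 145485227). On chromosome 14 (43809235 to 43828121) it overlapped 1, with 1051 bp covered in vehicle and 1074 bp in LPC, and the 2 bare peaks (906 and 712 bp) met LPC peaks of 1251 and 759 bp. With H3K27Ac peaks within 1 kb joined, the change of cover went from 150 to 1185 bp in the chromosome 3 cluster and turned from 45 to -558 bp in the chromosome 17 one. Bound sites without acetylation were thus kept in the same clusters as acetylated ones. The chromosome 18 cluster (41540150 to 41568005), the third by span, kept 2 of 3 peaks, all 3 acetylated in both lists, and its change of cover turned from 176 to -418 bp under that joining.

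Clusters that lost most of their peaks included well acetylated ones. On chromosome 4 (82640894 to 82657501) and chromosome 1 (44744065 to 44760228), 1 of 3 peaks was kept, while H3K27Ac covered 69.4% and 74.4% of the spans in vehicle and 72.5% and 77.2% in LPC. With H3K27Ac peaks within 1 kb joined, the change of cover turned from 513 to -180 bp in the first and went from 455 to 175 bp in the second. On chromosome 2 (43235245 to 43254340) 1 of 3 was kept with 25.3% and 30.8% covered. On chromosome 18 (77689500 to 77705544) 1 of 3 was kept with 11.1% and 10.9% covered, a change of -41 bp that became -122 bp under that joining. There the kept peak had no H3K27Ac in vehicle and 412 bp in LPC.

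The longest pairs without a kept peak ranged from cover of most of the span to none. The pair on chromosome 15 (45775219 to 45789697) had 79.2% of its span covered in vehicle and 86.5% in LPC. Those on chromosome 5 (126133690 to 126145911) and chromosome 17 (6721187 to 6735162) had 45.6% and 13.0% in vehicle and 47.8% and 20.0% in LPC. Those on chromosome 8 (32616869 to 32630131) and chromosome 3 (62611079 to 62623100) had no H3K27Ac peak in either list. Bare clusters were not all lost, however. Of the 30 without H3K27Ac in the span, 16 kept all peaks, 9 some and 5 none. Over all 292 clusters these shares were 43.8%, 43.2% and 13.0%. The longest bare clusters that kept peaks were on chromosome 15 (27473637 to 27487580, both kept), chromosome 5 (128847382 to 128861939), chromosome 11 (73661116 to 73674691) and X (140067396 to 140080089), where 1 peak each was kept.

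The largest gain of H3K27Ac cover was on chromosome 5 (145464839 to 145485227), from 4317 to 7502 bp, where all 3 Olig2 peaks were kept. All peaks were also kept on chromosome 13 (51067888 to 51080100), where cover went from 6875 to 9402 bp, and on chromosome 10 (64471893 to 64484492), where it went from 6172 to 8111 bp. One of 2 peaks was kept on chromosome 12 (43773250 to 43787076, 5367 to 8294 bp) and on chromosome 11 (84357643 to 84371520, 2400 to 4490 bp).

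The 5 clusters with the largest loss of cover were partly kept, as were 43.2% of all clusters. The largest was on chromosome 14 (4362813 to 4370125), from 4918 to 1232 bp. Its first Olig2 peak, the longest in the vehicle list at 5217 bp, was missing in LPC, and its cover fell from 4878 to 1232 bp. Its second, 372 bp away, carried no H3K27Ac in either list and was kept. The LPC peak of the second lay within 1 kb of the first. On chromosome 17 (47981231 to 47988798) and chromosome 10 (82074097 to 82082844), the missing Olig2 peak lost all its H3K27Ac (595 and 1031 bp in vehicle, 0 in LPC) and the kept one did not. On chromosome 8 (26748129 to 26756275) it was the reverse: the kept peak went from 1482 bp of H3K27Ac to 0 and the missing one from 1439 to 1519 bp. On chromosome 1 (135266346 to 135282037) the covered part of the span went from 9128 to 7542 bp, a change of -1586 bp that became -2681 bp with H3K27Ac peaks within 1 kb joined, and all 3 Olig2 peaks stayed acetylated.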

How the data were processed

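The only deposited values are the start and end positions, in base pairs, of the peaks of each library, 1 list for each. MACS 1.4.2 and the rat build rn4 are named in the submitters' processing notes. No source used here gives the peak threshold, control library, aligner or depth. Peaks were joined, overlapped (at least 1 bp) and measured for cover in Python 3.11.15 (numpy 2.4.6, SciPy 1.17.1, matplotlib 3.10.9). Counts differed from bedtools 2.31.1 by 0, and the code was tested on simulated lists. Shares of peaks and of clusters carry exact Clopper-Pearson 95% intervals. The covered share of gaps carries a normal 95% interval with each gap taken as independent. Differences carry normal 95% intervals from the variance between clusters, with windows that can share bases taken as 1 unit. For neighbours of single peaks and adjacent peaks over 12.5 kb apart, each pair was 1 unit, although pairs can share a peak. All intervals cover counting error only.

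Regions named are the 5 first clusters by number of peaks, by span, with all, some (most lost) or none of their peaks kept, without H3K27Ac, and with the largest gain and loss of cover. The members and rules were chosen with earlier results of these data known. Alternatives are given in the closing section. Peaks near marker genes of other cell types were not analysed here, as no rn4 annotation was used.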

Additional observations from a re-analysis of the deposited data

How the results depend on the processing

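The excess of clustered over single Olig2 peaks on H3K27Ac kept its sign and an interval above 0 under every alternative run, from 8.81 to 22.3 points in vehicle and from 8.07 to 19.2 points in LPC. The comparison with nearer single peaks, and all alternatives for the neighbours' acetylation, the partly kept clusters and the LPC-only H3K27Ac peaks, with the shares among peaks off vehicle H3K27Ac, were chosen after seeing the data. At joining distances of 5 and 25 kb there were 151 and 488 clusters with 314 and 1092 peaks (6.32% and 21.99% of the list). The gaps were covered to 33.8% and 12.3% by vehicle and 38.3% and 14.2% by LPC H3K27Ac. At 5 kb the difference in kept share was -0.038 points, and the excess of larger clusters on H3K27Ac was 9.20 points in vehicle and 11.0 in LPC with intervals including 0. At 25 kb, larger clusters minus pairs in kept share was -1.71 points, and the difference in the ratio of cover was -0.023 with an interval including 0. Among vehicle peaks at or above the median length there were 119 clusters with 255 peaks (10.2%), gaps were covered to 29.9% and 33.8%, the difference in kept share was -0.52 points, and neighbours' vehicle acetylation differed by 22.6 points with an interval including 0. In partly kept clusters, the LPC H3K27Ac difference between kept and missing peaks lost its interval above 0 at 5 kb (1.52 points, 158 bp), at 25 kb (4.16 points, 116 bp) and in the longer peaks (4.73 points, 107 bp). Joining Olig2 peaks within 1 kb left 11.1% of peaks clustered. Accepting an LPC Olig2 peak within 1 kb as kept gave a kept difference of 5.31 points (1.19 to 9.43) and a neighbour difference of 16.1 points (4.74 to 27.4). Under this rule the LPC peak of a close neighbour can count as well, and its part in these differences was not tested. Joining H3K27Ac peaks within 1 kb gave a difference in the ratio of cover of -0.030 with an interval including 0, and turned the change of cover to -418 bp in the chromosome 18 cluster of 3 that starts at 41540150, -558 bp in the chromosome 17 one at 37071054 and -180 bp in the chromosome 4 one at 82640894. It moved that change by over 1.5 times in the same direction in 7 more of the 32 named clusters. The causes of these changes were not tested. No paired analysis was possible because each antibody and condition had 1 library, and no replicate could be left out. Filters on peak score were replaced by the filter on length, as the lists hold no score. Depth is unknown, and how near a missing peak came to the calling threshold was not tested.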

Other observations

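Of the 48 LPC Olig2 peaks without a vehicle partner, 2 lay at most 12.5 kb from a vehicle cluster and 4 at most 12.5 kb from a single vehicle peak. The 2 were looked up after the clusters had been described. One lay on chromosome 11 (31206183 to 31207664, 1482 bp), 5.53 kb upstream of the wholly kept cluster of 4 peaks, and was fully covered by H3K27Ac in both lists. The other lay on chromosome 3 (8833358 to 8835044, 1687 bp), 8.44 kb from the cluster at 8814284 to 8824922, with 1596 bp covered in vehicle and 1687 bp in LPC.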
